A study of Mus musculus with 16 samples.

Results

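The comparison described here is that of *Camkk2*-/- with WT bone marrow-derived macrophages (BMDM) kept in regular medium (RM), without conditioned medium of tumor cells. Its arrays were set by their labels, as the 4 arrays of *Camkk2* -/- cells in RM and the 4 arrays of *Camkk2* +/+ cells in RM, 8 of the 16 arrays of the series. The comparison was read over all 19505 genes of the array that carried a single gene symbol. The other 8 arrays held BMDM of both genotypes grown with tumor-conditioned medium (TCM) from E0771, a mammary tumor line of the mouse. They serve below to show where the genotypes differed otherwise than in RM. They were also fitted together with the RM arrays, so that they enter the estimate of spread behind each SE and adjusted p in RM. All BMDM came from the marrow of long bones of female mice of 10 to 12 weeks, 16 per genotype for 4 biological replicates, and were differentiated for 5 days with 30% L929-conditioned medium, which supplies CSF1, the growth factor of macrophages, on plates of ultra-low attachment. RM cultures received an equal volume of unconditioned medium in place of TCM, which made up 20% of the culture in the labels and 25% in the methods. The knockout is of the whole body, so marrow progenitors lacked the gene before the culture began. The methods state at least 4 backcrosses to C57BL/6 right after describing mice with a myeloid deletion of *Camkk2*. For the WT and *Camkk2*-/- mice they refer to earlier work. They do not say whether WT mice were littermates or which mice made up each replicate.

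CaMKK2 is a serine/threonine kinase that is switched on by calcium-bound calmodulin and in turn phosphorylates the kinases CaMKI, CaMKIV, and AMPK, so that it couples calcium entry to transcription and to energy balance. Among myeloid cells it is known from macrophages, and BMDM are the usual culture in which macrophage genes are studied without a tissue around them. Many of the genes described below belong to interferon-induced families, which macrophages also express at a low level without infection, and to the secreted and lysosomal proteases of macrophages.

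Signals are log2 values as deposited, and a difference is a log2 fold change of *Camkk2*-/- over WT from a limma fit across all genes. The 23 antigenomic probe sets, built to bind no mouse transcript, had a median of 5.37 (the background median), and 10618 genes had a mean signal over the 8 RM arrays above it. The means of the single antigenomic probe sets ran from 2.48 to 6.82, so that a signal above the median can still lie within their range. A gene was called a differentially expressed gene (DEG) at a Benjamini-Hochberg adjusted p under 0.05 together with an absolute difference above 0.5 in natural-log units (0.721 in log2 units). In RM, 141 genes were DEGs, 0.723% of those tested. Of these, 84 were higher (0.431%) and 57 lower (0.292%) in *Camkk2*-/- cells. The WT and *Camkk2*-/- arrays did not overlap for 138 of the 141 DEGs, against 846 of all genes (4.34%), and 102 DEGs differed by more than 2-fold and 29 by more than 4-fold. The median difference of all genes was 0.02, and 54.0% of all genes had a positive difference. At an unadjusted p under 0.05 (limma), 4.82% of all genes were higher and 3.38% lower, the shares to set beside the counts of list members below. Without *Camkk2*-/- replicate 2, 53 genes were higher, and without WT replicate 3, 37 were lower. When the 8 RM arrays were fitted alone, 77 genes were higher and 50 lower, and 35 of the 141 DEGs lost their call. Where leaving out 1 of the 8 arrays ended the call of a gene given with its values, the arrays are named beside it. Where the mean of 1 genotype lay below the background median, the difference is also given as a bound against that median. Such a bound holds against the median only. Where the higher mean also lies below 6.82, both genotypes are within the range of the antigenomic probe sets.

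**Figure D1:**
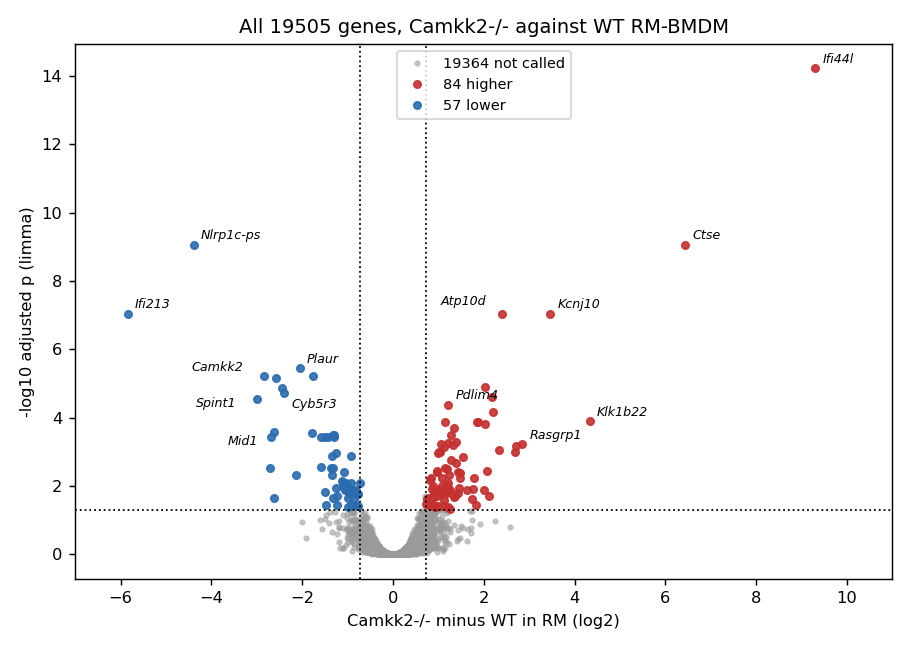
Volcano plot of all 19505 genes, with the log2 difference of *Camkk2*-/- minus WT RM-BMDM on the horizontal axis and −log10 of the adjusted p on the vertical axis. Red points are the 84 genes called higher, blue points the 57 called lower, gray points the rest, and dotted lines the thresholds, with Ifi44l at the upper right, at a difference of 9.30, and Ifi213 at the far left, at −5.84.

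The gene deleted in the knockout checks the labels. *Camkk2* read 9.83, 9.58, 9.82, and 9.11 on WT replicates 1 to 4 and 7.20, 7.43, 6.07, and 6.26 on *Camkk2*-/- replicates 1 to 4. All *Camkk2*-/- arrays lay below all WT arrays and above the background median, replicates 3 and 4 within the range of the antigenomic probe sets. The sources used here do not say which exons of *Camkk2* are probed. *Camkk2* fell by 2.85 (SE 0.28, adjusted p = 6.14e-06), which is 7.19-fold. Of the other 18 measured genes of the CaMKK, CaMK, and AMPK kinases, 0 were DEGs (limma; 1 higher and 0 lower at an unadjusted p under 0.05), and their differences ran from −0.25 to 0.67. The nearest to a call was *Camk1d*, a CaMKI isoform, at 0.67 (adjusted p = 0.172). *Camk4*, which encodes CaMKIV, stood at 0.30 (adjusted p = 0.749).

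The next gene but one to *Camkk2* on chromosome 5, *Rnf34*, was a DEG too. *Rnf34* encodes a RING-type ubiquitin ligase, and it read 10.14, 10.06, 10.78, and 9.92 in WT and 8.98, 9.21, 8.75, and 8.66 in *Camkk2*-/- cells, a difference of −1.33 (SE 0.22, adjusted p = 0.00289). Among the 10 tested genes on either side of *Camkk2*, *Rnf34* alone was called. The other 19 had differences from −0.46 to 0.86. Of these, *Ift81*, which encodes a subunit of the intraflagellar transport machinery, stood at 0.86 (adjusted p = 0.0891) and *Atp2a2*, the calcium pump SERCA2 of the endoplasmic reticulum, at 0.45 (adjusted p = 0.263). Between *Camkk2* and *Rnf34*, *Anapc5* stood at −0.36 (adjusted p = 0.676).

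**Figure D2:**
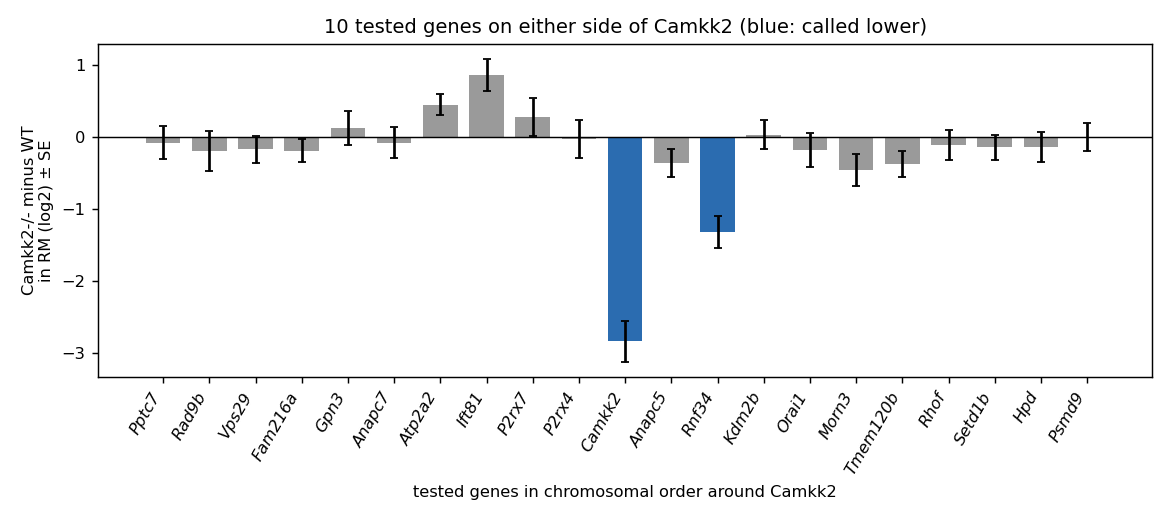
Difference of *Camkk2*-/- minus WT RM-BMDM (log2, bars with the SE of the fit, n = 4 arrays per genotype) for Camkk2 and the 10 tested genes on either side of it, in chromosomal order. Camkk2 and Rnf34, in blue, were called lower, and the other 19 genes lay between −0.46 and 0.86.

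The p200 family, whose members carry HIN domains that bind DNA and several of which are interferon-induced, held the largest fall. *Ifi213* read 12.12, 11.93, 12.46, and 13.58 in WT and 5.82, 6.97, 6.92, and 7.02 in *Camkk2*-/- cells. *Ifi208* read 9.61, 10.67, 11.58, and 11.55 in WT and 7.68, 8.53, 8.53, and 7.88 in *Camkk2*-/- cells. For both genes the arrays of the genotypes stood apart, and in *Camkk2*-/- cells *Ifi213* lay nearer to the background median than *Ifi208* did. *Ifi213* fell by 5.84 (SE 0.44, adjusted p = 9.06e-08) and *Ifi208* by 2.70 (SE 0.45, adjusted p = 0.00289). These neighbors on chromosome 1 were the 2 DEGs among 9 measured members of the family, 0 of which had a positive difference. The family's median difference was −0.51, against 0.02 for all genes, and 7 of 9 were lower at an unadjusted p under 0.05, as were 3.38% of all genes. *Ifi207* stood at −0.50 (adjusted p = 0.142) and *Ifi209* at −1.18 (adjusted p = 0.164). The members are close relatives, and the sources used here do not say how far their probe sets are shared.

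The promoters of *Ifi213* and *Ifi208* are shown because the 2 genes moved together and their windows are near copies, and 4 others because they belong to genes described below that were higher, the interferon-induced *Ifi44l* and *Xaf1*, the acute phase gene *Saa3*, and the chemokine gene *Cxcl14*. Each is a RefSeq window of assembly GRCm38.p6 from 250 bases before to 50 bases after the start of the gene, printed 5′ to 3′ on the gene's strand. Capitals mark matches to GAAANNGAAA on either strand, the core of the element bound by interferon-activated factors.
*Ifi213* (chr1:173599223-173599522, minus strand): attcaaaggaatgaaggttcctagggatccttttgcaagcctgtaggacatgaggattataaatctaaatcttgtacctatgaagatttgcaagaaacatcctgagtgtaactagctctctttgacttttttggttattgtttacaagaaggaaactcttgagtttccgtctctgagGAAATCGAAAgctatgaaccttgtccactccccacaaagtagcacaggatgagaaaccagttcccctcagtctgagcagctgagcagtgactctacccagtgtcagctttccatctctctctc
*Ifi208* (chr1:173673415-173673714, plus strand): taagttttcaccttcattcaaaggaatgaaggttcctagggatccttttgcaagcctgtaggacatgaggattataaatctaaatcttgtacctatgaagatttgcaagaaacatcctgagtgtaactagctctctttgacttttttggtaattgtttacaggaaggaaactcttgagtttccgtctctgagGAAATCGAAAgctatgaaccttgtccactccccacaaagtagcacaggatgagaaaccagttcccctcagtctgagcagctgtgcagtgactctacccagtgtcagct
*Ifi44l* (chr3:151762842-151763141, minus strand): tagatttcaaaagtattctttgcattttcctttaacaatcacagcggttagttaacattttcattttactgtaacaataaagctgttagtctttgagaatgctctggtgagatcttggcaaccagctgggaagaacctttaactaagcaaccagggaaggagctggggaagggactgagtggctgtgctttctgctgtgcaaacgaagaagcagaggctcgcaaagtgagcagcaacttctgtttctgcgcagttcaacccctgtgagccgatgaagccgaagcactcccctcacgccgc
*Xaf1* (chr11:72301379-72301678, plus strand): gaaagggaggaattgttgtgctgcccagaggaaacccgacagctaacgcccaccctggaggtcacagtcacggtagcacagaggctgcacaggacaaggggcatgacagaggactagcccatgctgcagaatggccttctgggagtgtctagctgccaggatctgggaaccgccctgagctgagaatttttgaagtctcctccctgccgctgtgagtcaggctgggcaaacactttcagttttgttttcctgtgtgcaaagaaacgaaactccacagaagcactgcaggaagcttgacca
*Saa3* (chr7:46715627-46715926, minus strand): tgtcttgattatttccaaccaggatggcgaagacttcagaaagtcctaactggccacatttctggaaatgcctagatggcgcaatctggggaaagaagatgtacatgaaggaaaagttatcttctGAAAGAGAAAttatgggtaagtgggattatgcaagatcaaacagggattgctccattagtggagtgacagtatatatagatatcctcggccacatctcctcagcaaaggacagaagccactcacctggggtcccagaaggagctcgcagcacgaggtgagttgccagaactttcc
*Cxcl14* (chr13:56296502-56296801, minus strand): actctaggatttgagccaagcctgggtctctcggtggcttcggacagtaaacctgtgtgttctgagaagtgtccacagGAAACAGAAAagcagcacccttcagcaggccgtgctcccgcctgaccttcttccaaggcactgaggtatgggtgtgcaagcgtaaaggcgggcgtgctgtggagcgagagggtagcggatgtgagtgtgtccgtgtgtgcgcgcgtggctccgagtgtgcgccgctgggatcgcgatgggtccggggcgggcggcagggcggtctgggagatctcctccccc

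Shifted by 15 bases against each other, the *Ifi213* and *Ifi208* windows were identical at 282 of 285 bases (98.9%), and both held the same 10 letters, GAAATCGAAA, and a TATAAA. *Saa3* held GAAAGAGAAA and *Cxcl14* GAAACAGAAA, and the windows of *Ifi44l* and *Xaf1* held no match, which says only that these letters are not in these 300 bases. Over all 15691 tested genes with a window, 3.94% held GAAANNGAAA on either strand (TATAAA, the other motif searched on both strands, cannot overlap it). Windows were found for 60 of the 84 higher and 50 of the 57 lower DEGs. Of these, 6 of the higher (*Cxcl14*, *Fcrla*, *Gm5150*, *Ldlrad3*, *Saa3*, and *Wls*) and 3 of the lower (*Ifi208*, *Ifi213*, and *Slc28a2b*) held it. TATAAA was present in 3 of the 60, 7 of the 50, and 14.6% of all windows.

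The largest difference of the comparison was that of *Ifi44l*, an interferon-induced gene. *Ifi44l* read 4.15, 3.78, 3.82, and 3.57 on the WT arrays, all below the background median, and 12.04, 13.43, 13.61, and 13.46 on the *Camkk2*-/- arrays. Its difference was 9.30 (SE 0.26, adjusted p = 5.93e-15). Since no WT array reached the background median, a bound against that median is given here too, by which *Ifi44l* was at least 218-fold higher. The largest difference among the other members of the type I interferon list was that of *Oasl1*, at 2.24.

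The type I interferon list had 3 higher and 0 lower genes among 51 measured. *Xaf1*, which encodes an interferon-induced binding partner of the apoptosis inhibitor XIAP, read 12.14, 12.40, 13.39, and 13.11 in WT and 13.49, 14.41, 14.50, and 14.50 in *Camkk2*-/- cells, with no overlap and a difference of 1.47 (SE 0.26, adjusted p = 0.00592). *Ifi27l2a*, an interferon-induced gene of the ISG12 family, read 12.36, 11.68, 11.21, and 11.38 in WT and 13.15, 13.47, 12.78, and 12.08 in *Camkk2*-/- cells, groups that overlapped. It rose by 1.21 (SE 0.28, adjusted p = 0.0406), a call that was lost without WT replicate 2, 3, or 4 or *Camkk2*-/- replicate 1, 2, or 3 (adjusted p of 0.0918 to 0.18). The list's median difference was 0.33 and 49 of its 51 members were above 0, where 54.0% of all genes were. At an unadjusted p under 0.05, 10 were higher and 1 lower, beside 4.82% and 3.38% of all genes. Nearest to a call were *Oasl1*, at 2.24 (adjusted p = 0.102), and the antiviral GTPase gene *Mx2*, at 1.34 (adjusted p = 0.137), and both passed without *Camkk2*-/- replicate 1 (adjusted p = 0.0259 and adjusted p = 0.0365, respectively). In TCM, 36 of the 51 genes were DEGs upward and 1 downward, with a median of 1.11. The difference between media passed an adjusted p under 0.05 for 0 of the 51 (limma; 22 were larger and 1 smaller in TCM at an unadjusted p under 0.05). The shares of all genes given here are those of the RM difference. None was counted for the difference between media, so the counts of 22 and 1 have no share beside them.

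The type II interferon list had 2 higher and 0 lower genes among 23, and its median was 0.34. At an unadjusted p under 0.05, 5 were higher and 0 lower, beside 4.82% and 3.38% of all genes. *Iigp1*, which encodes a GTPase that attacks the vacuoles of intracellular parasites, read 6.27, 5.76, 6.49, and 6.40 in WT and 6.91, 8.10, 8.97, and 7.94 in *Camkk2*-/- cells. It rose by 1.75 (SE 0.37, adjusted p = 0.0242), and the call did not survive without WT replicate 1, 2, or 3 or *Camkk2*-/- replicate 2, 3, or 4 (adjusted p of 0.0501 to 0.126). The second gene, *Ciita*, is described with antigen presentation. *Bst2*, named because it went furthest against the type I list, stood at −1.93 (adjusted p = 0.336).

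Of the Nlrp1 genes of chromosome 11, *Nlrp1c-ps* and *Nlrp1a* were lower. *Nlrp1a* and its relatives encode sensors that form inflammasomes, the complexes that activate caspase-1. *Nlrp1c-ps*, which the reference table lists as a transcribed pseudogene, read 10.52, 10.12, 9.52, and 9.31 in WT and 4.98, 5.51, 5.61, and 5.81 in *Camkk2*-/- cells. *Nlrp1a* read 6.47, 6.17, 6.04, and 5.14 in WT and 3.67, 3.57, 3.25, and 3.54 in *Camkk2*-/- cells. All *Camkk2*-/- arrays of *Nlrp1a* lay below the background median, and those of *Nlrp1c-ps* lay around it. The fall was 4.39 (SE 0.25, adjusted p = 8.68e-10) for *Nlrp1c-ps* and 2.45 (SE 0.26, adjusted p = 1.39e-05) for *Nlrp1a*, the latter at least 1.5-fold against the background median. The third paralog, *Nlrp1b*, stood at −0.37 (adjusted p = 0.578) and *Nlrp3* at 0.76 (adjusted p = 0.273). Over 15 Nlrp and inflammasome genes, 0 were higher and 2 lower, with a median of 0.08. At an unadjusted p under 0.05 (limma), 3 were higher and 3 lower, beside 4.82% and 3.38% of all genes. The sources used here do not say whether the probe sets of these paralogs share probes.

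**Figure D3:**
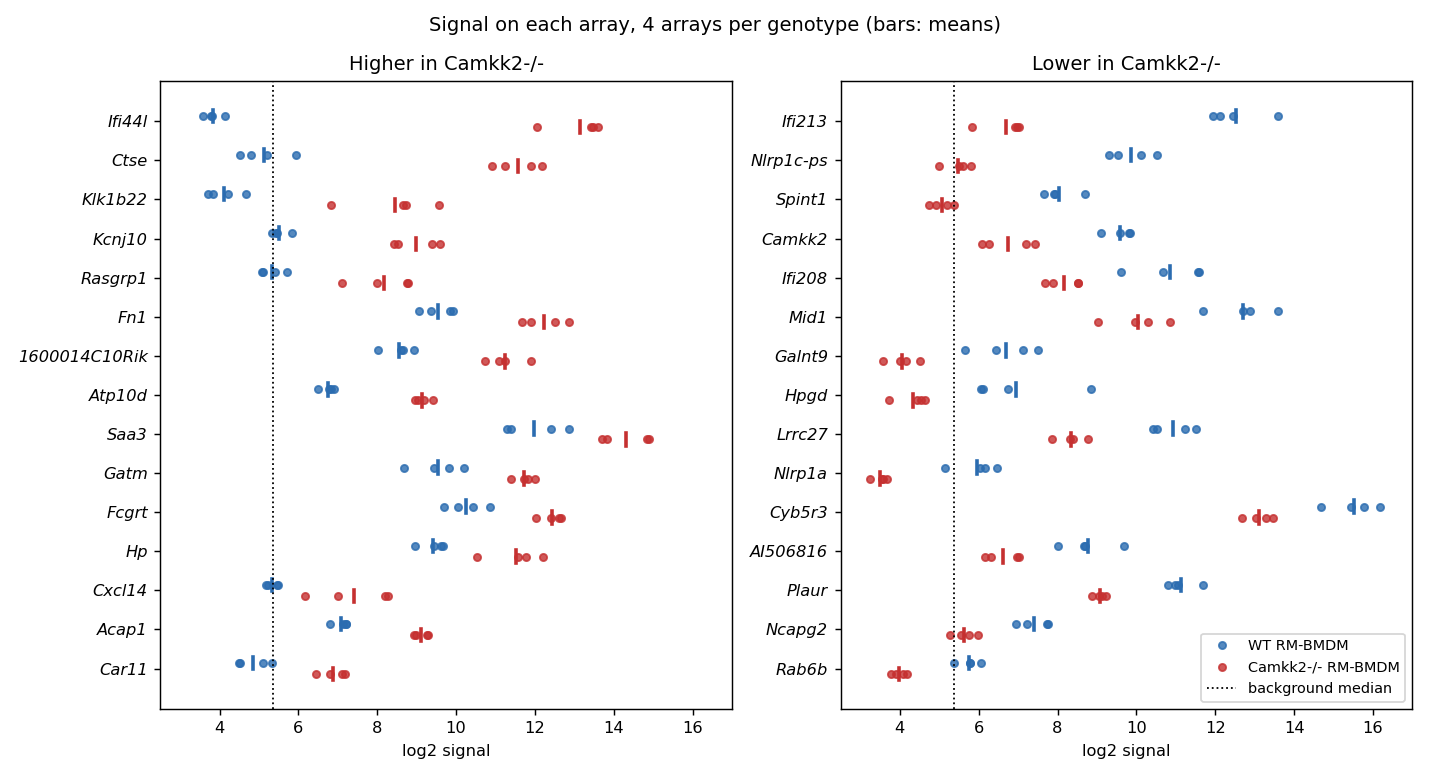
Log2 signal on each array for the 15 DEGs of the largest difference in either direction whose arrays did not overlap, with WT RM-BMDM in blue, *Camkk2*-/- RM-BMDM in red, bars for the means of 4 arrays, and a dotted line at the background median of 5.37. Ifi44l, Ctse, and Klk1b22 have WT means below that line and read 12.04 to 13.61, 10.92 to 12.17, and 6.82 to 9.56 in *Camkk2*-/- cells.

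Proteases and their inhibitors were among the most changed genes in both directions. *Ctse* encodes cathepsin E, an aspartic protease of endosomes, and read 4.53, 5.20, 5.93, and 4.81 in WT and 10.92, 12.17, 11.90, and 11.24 in *Camkk2*-/- cells. *Klk1b22* encodes a serine protease of the glandular kallikreins, and read 4.23, 4.66, 3.84, and 3.70 in WT and 9.56, 8.66, 8.72, and 6.82 in *Camkk2*-/- cells. Both had WT means below the background median, and every *Camkk2*-/- array was above it. *Ctse* rose by 6.44 (SE 0.35, adjusted p = 8.68e-10) and *Klk1b22* by 4.33 (SE 0.54, adjusted p = 0.000125). Against the background median they were at least 66.2-fold and 8.4-fold higher. Other kallikrein genes of the cluster did not follow, for instance *Klk1*, at 0.35 (adjusted p = 0.815), and *Klk1b1*, at −0.30 (adjusted p = 0.914).

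Of 22 cathepsins, cystatins, and stefins, *Ctse* and *Ctsl* were higher and 0 were lower (4 higher and 1 lower at an unadjusted p under 0.05). *Ctsl*, the cysteine protease cathepsin L of lysosomes, was among the brightest genes of the array at 17.31, 17.25, 17.31, and 17.44 in WT and 18.08, 18.12, 18.29, and 18.13 in *Camkk2*-/- cells. The groups were tight and the difference was 0.83 (SE 0.15, adjusted p = 0.00594). Cathepsin C, the activator of granule proteases, had a difference of 0.76 (adjusted p = 0.201) for *Ctsc*. The median of the list was 0.10.

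Of 24 matrix, protease, and inhibitor genes, 1 was higher and 2 were lower (limma; 5 higher and 2 lower at an unadjusted p under 0.05). *Spint1*, a membrane-bound Kunitz inhibitor of serine proteases such as the activator of hepatocyte growth factor, read 8.70, 7.90, 7.66, and 7.92 in WT and 4.92, 5.37, 4.74, and 5.20 in *Camkk2*-/- cells. *Plaur*, the receptor of urokinase plasminogen activator, read 11.70, 11.04, 10.97, and 10.80 in WT and 9.06, 9.23, 8.88, and 9.14 in *Camkk2*-/- cells. The *Camkk2*-/- mean of *Spint1* lay below the background median, while *Plaur* stayed well expressed. *Spint1* fell by 2.99 (SE 0.33, adjusted p = 2.89e-05), at least 6.4-fold, and *Plaur* by 2.05 (SE 0.19, adjusted p = 3.49e-06). The gene that was higher is *Fn1*, which encodes fibronectin, a matrix glycoprotein. It read 9.84, 9.06, 9.91, and 9.35 in WT and 12.87, 12.52, 11.90, and 11.67 in *Camkk2*-/- cells, a difference of 2.70 (SE 0.40, adjusted p = 0.000668).

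Genes of growth factors and their receptors were also among the DEGs. *Hgf*, hepatocyte growth factor, was the only one of 36 cytokines and growth factors that was called (5 higher and 3 lower at an unadjusted p under 0.05). It read 9.81, 9.04, 9.58, and 9.46 in WT and 10.20, 10.62, 10.53, and 10.18 in *Camkk2*-/- cells, a rise of 0.91 (SE 0.19, adjusted p = 0.0163) that was lost without WT replicate 2 or *Camkk2*-/- replicate 2 or 3 (adjusted p of 0.0692 to 0.085). *Pdgfrb*, the platelet-derived growth factor receptor beta, read 5.96, 5.50, 5.79, and 5.27 in WT and 7.08, 7.40, 7.18, and 6.65 in *Camkk2*-/- cells. It rose by 1.45 (SE 0.28, adjusted p = 0.0113) and missed the threshold without *Camkk2*-/- replicate 2 (adjusted p = 0.0601). *Wls*, which carries Wnt proteins to the cell surface, rose by 1.29 (SE 0.17, adjusted p = 0.000314).

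In the chemokine family, 2 of 27 ligands were higher and 0 lower, with a median of 0.40 (limma; 6 higher and 0 lower at an unadjusted p under 0.05). *Cxcl14*, a chemokine made by many resting tissues, read 5.47, 5.18, 5.49, and 5.24 in WT and 8.21, 8.28, 7.0, and 6.16 in *Camkk2*-/- cells. WT arrays lay at background, *Camkk2*-/- replicates 1 and 2 were the highest, and the rise of 2.07 (SE 0.35, adjusted p = 0.00363) was at least 3.97-fold against the background median. *Ccl24*, an attractant of eosinophils, read 7.34, 6.52, 5.74, and 5.40 in WT and 8.86, 9.16, 7.38, and 6.97 in *Camkk2*-/- cells, groups that overlapped. Its difference of 1.84 (SE 0.41, adjusted p = 0.0348) was no longer called without WT replicate 2, 3, or 4 or *Camkk2*-/- replicate 1 or 2 (adjusted p of 0.074 to 0.155). *Pf4*, at 1.02 (adjusted p = 0.192), and *Ccl5*, at 1.72 (adjusted p = 0.242), came next. *Fn1* and *Ccl24* also belong to the list of IL-4-type alternative activation, of whose 22 genes they were the 2 called, while *Arg1*, arginase 1, stood at 1.03 (adjusted p = 0.19).

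Antigen presentation by MHC class II had 2 higher and 0 lower genes among 10, with a median of 0.68. Of the 10, 9 were above 0, as were 54.0% of all genes. At an unadjusted p under 0.05, 7 were higher, beside 4.82% of all genes. *H2-Eb1*, the beta chain of the class II molecule I-E, read 15.09, 14.58, 14.84, and 14.92 in WT and 15.88, 16.26, 16.16, and 15.59 in *Camkk2*-/- cells, and rose by 1.12 (SE 0.17, adjusted p = 0.000726). *Ciita*, the transactivator of class II genes, read 9.83, 9.60, 9.31, and 8.95 in WT and 10.49, 11.24, 10.54, and 10.29 in *Camkk2*-/- cells. Its rise of 1.22 (SE 0.24, adjusted p = 0.0113) was lost without *Camkk2*-/- replicate 2 (adjusted p = 0.06). The class II genes *H2-Ab1* and *H2-Aa* stood at 0.74 (adjusted p = 0.136) and 0.75 (adjusted p = 0.226). Of 18 genes of MHC class I presentation 0 were called in either direction (3 higher and 0 lower at an unadjusted p under 0.05).

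*Tmem176b* and *Tmem176a*, neighbors on chromosome 6 that encode intracellular cation channels of antigen-presenting cells, were both higher. *Tmem176a* read 12.78, 11.90, 11.45, and 12.23 in WT and 13.82, 14.81, 13.94, and 12.84 in *Camkk2*-/- cells, a rise of 1.76 (SE 0.34, adjusted p = 0.0122) that was lost without WT replicate 2 or 3 or *Camkk2*-/- replicate 2 (adjusted p of 0.0567 to 0.0625). *Tmem176b* rose by 1.43 (SE 0.29, adjusted p = 0.0158), a call lost without WT replicate 2 or 3 or *Camkk2*-/- replicate 1, 2, or 3 (adjusted p of 0.0512 to 0.0868). In both, *Camkk2*-/- replicate 4 was the lowest of its group.

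Fc receptors gave 2 higher and 0 lower of 11 (limma; 4 higher and 0 lower at an unadjusted p under 0.05). *Fcgrt*, the neonatal Fc receptor that returns IgG and albumin from endosomes to the cell surface, read 10.86, 9.69, 10.43, and 10.04 in WT and 12.42, 12.65, 12.62, and 12.02 in *Camkk2*-/- cells. The groups were more than 1 log2 unit apart, and *Fcgrt* rose by 2.17 (SE 0.24, adjusted p = 2.45e-05). *Fcrla* was called higher (adjusted p = 0.0352) with the means of both genotypes below the background median, so that no fold is given, and lost the call without WT replicate 1, 2, or 3 or *Camkk2*-/- replicate 3 or 4 (adjusted p of 0.0655 to 0.155). The remaining 9 had differences of −0.20 to 0.74.

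Acute phase proteins are secreted in inflammation. *Saa3*, the serum amyloid A of macrophages, read 11.28, 12.41, 11.38, and 12.86 in WT and 13.83, 14.90, 14.83, and 13.71 in *Camkk2*-/- cells, and rose by 2.33 (SE 0.35, adjusted p = 0.000891). *Hp*, haptoglobin, which binds free hemoglobin, read 9.66, 9.43, 8.95, and 9.62 in WT and 11.56, 12.20, 11.78, and 10.54 in *Camkk2*-/- cells. It rose by 2.11 (SE 0.44, adjusted p = 0.0197), and this was lost without WT replicate 2 or 3 or *Camkk2*-/- replicate 1, 2, or 3 (adjusted p of 0.0535 to 0.101). *Cp*, ceruloplasmin, the copper-carrying ferroxidase, read 8.63, 8.94, 8.62, and 9.01 in WT and 10.56, 11.43, 10.78, and 9.55 in *Camkk2*-/- cells, a rise of 1.78 (SE 0.32, adjusted p = 0.00594), as the 1 called gene among 21 NRF2 targets and iron genes. *Camkk2*-/- replicate 4 was the lowest *Camkk2*-/- array for *Hp* and *Cp*. Markers of other myeloid cells had positive median differences, 0.82 for monocytes and 0.51 for neutrophils. The 5 monocyte markers had mean signals of 9.45 to 11.1 on the WT and 10.5 to 11.6 on the *Camkk2*-/- arrays, with *Plac8* at 1.69 (adjusted p = 0.055). The 12 neutrophil markers had 8.41 to 9.21 on the WT and 8.67 to 9.77 on the *Camkk2*-/- arrays, with *Csf3r* at 0.92 (adjusted p = 0.0911). All 5 monocyte and 9 of the 12 neutrophil markers had positive differences, as did 54.0% of all genes. The lowest neutrophil marker stood at −0.18. 0 of either list was a DEG (limma; 2 of the monocyte and 3 of the neutrophil markers were higher at an unadjusted p under 0.05), and their part in these differences was not tested.

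Lipid and metabolic genes moved both ways. *Apoe*, the apolipoprotein that macrophages release with cholesterol, was among the brightest genes at 18.72, 18.59, 18.82, and 19.15 in WT and 16.71, 17.77, 18.24, and 17.25 in *Camkk2*-/- cells. It fell by 1.33 (SE 0.28, adjusted p = 0.0226), a call that did not hold without WT replicate 1, 3, or 4 or *Camkk2*-/- replicate 1 or 4 (adjusted p of 0.0511 to 0.088). Of the 14 entries of the list of LXR targets and cholesterol efflux it was the only one called (limma; 3 higher and 1 lower at an unadjusted p under 0.05). *Abca1*, the cholesterol exporter, stood at 0.68 (adjusted p = 0.158) and *Cyp27a1* at 0.76 (adjusted p = 0.188). Of the fatty acid-binding proteins, *Fabp5* fell by 0.98 (SE 0.20, adjusted p = 0.0163) and *Fabp7* rose by 1.35 (SE 0.28, adjusted p = 0.0206). The call was lost without WT replicate 2 or 3 or *Camkk2*-/- replicate 1 or 2 (adjusted p of 0.0548 to 0.0878) for *Fabp5*, and without WT replicate 1 or 2 or *Camkk2*-/- replicate 2 or 3 (adjusted p of 0.0874 to 0.0937) for *Fabp7*. *Fabp4* stood at −0.83 (adjusted p = 0.201). Of the 24 entries of the list of steroid biosynthesis and SREBP targets, 0 were called (limma, 0 higher and 2 lower at an unadjusted p under 0.05). Their median was −0.31, and 4 were above 0, among them *Tom1l2*, at 0.0035, which entered the list through a synonym. *Cyp51* and *Idi1* stood at −0.71 (adjusted p = 0.459) and −0.65 (adjusted p = 0.545).

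*Cyb5r3*, an NADH-cytochrome b5 reductase that passes electrons to lipid desaturation and sterol synthesis, read 14.68, 15.45, 16.17, and 15.76 in WT and 13.46, 13.03, 12.68, and 13.28 in *Camkk2*-/- cells, and fell by 2.40 (SE 0.26, adjusted p = 1.91e-05). *Hpgd*, which inactivates prostaglandins, read 8.86, 6.76, 6.05, and 6.11 in WT and 4.64, 4.53, 4.43, and 3.73 in *Camkk2*-/- cells. WT replicate 1 stood far above the other WT arrays and all *Camkk2*-/- arrays were below the background median, and the fall of 2.61 (SE 0.55, adjusted p = 0.0226), at least 2.98-fold, was lost without WT replicate 1 or 2 or *Camkk2*-/- replicate 2, 3, or 4 (adjusted p of 0.0627 to 0.072). *Gatm*, which catalyzes the first step of creatine synthesis, read 9.45, 8.69, 10.20, and 9.82 in WT and 11.73, 11.99, 11.82, and 11.39 in *Camkk2*-/- cells, a rise of 2.19 (SE 0.26, adjusted p = 6.7e-05). *Srd5a3*, a reductase that makes dolichol for glycosylation, fell by 1.58 (SE 0.22, adjusted p = 0.000375). *Cd5l*, a secreted scavenger receptor-like protein of macrophages, rose by 0.97 (SE 0.17, adjusted p = 0.00358), from 15.44 ± 0.18 (mean ± SD, n = 4) to 16.41 ± 0.23. Of the 26 entries of the glycolysis and hypoxia list, *Eno1b* was higher, at 0.85 (adjusted p = 0.0334). *Car9*, a carbonic anhydrase, was lower, at −1.23 (adjusted p = 0.0352), at least 2.02-fold. At an unadjusted p under 0.05 (limma), 4 of the 26 entries were higher and 3 lower. The call of *Eno1b* was lost without WT replicate 2, 3, or 4 or *Camkk2*-/- replicate 1, 2, 3, or 4 (adjusted p of 0.0503 to 0.12). That of *Car9* was lost without WT replicate 1 or 3 or *Camkk2*-/- replicate 2, 3, or 4 (adjusted p of 0.0602 to 0.147). Another member of the carbonic anhydrase family, the catalytically inactive *Car11*, read 4.51, 5.33, 4.49, and 5.11 in WT and 6.46, 7.10, 7.19, and 6.80 in *Camkk2*-/- cells and rose by 2.03 (SE 0.21, adjusted p = 1.22e-05), at least 2.86-fold.

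The following DEGs of signaling are members of none of the gene lists and are given one by one. *Kcnj10*, an inwardly rectifying potassium channel, read 5.85, 5.47, 5.34, and 5.43 in WT and 8.42, 9.60, 9.39, and 8.53 in *Camkk2*-/- cells. *Rasgrp1*, a guanine nucleotide exchange factor for Ras that binds calcium and diacylglycerol, read 5.09, 5.41, 5.70, and 5.08 in WT and 7.99, 8.79, 8.76, and 7.11 in *Camkk2*-/- cells. WT arrays lay near the background median, and every *Camkk2*-/- array was more than 1 log2 unit above it. *Kcnj10* rose by 3.46 (SE 0.26, adjusted p = 8.97e-08) and *Rasgrp1* by 2.84 (SE 0.41, adjusted p = 0.000597), the latter at least 6.5-fold. *Acap1*, a GTPase-activating protein for ARF6, read 7.13, 7.20, 7.21, and 6.80 in WT and 8.97, 9.26, 8.93, and 9.29 in *Camkk2*-/- cells, a rise of 2.03 (SE 0.26, adjusted p = 0.000147).

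*Dapk1*, a death-associated kinase regulated by calcium and calmodulin, read 11.46, 11.27, 11.29, and 11.10 in WT and 12.80, 13.36, 12.84, and 12.31 in *Camkk2*-/- cells and rose by 1.55 (SE 0.24, adjusted p = 0.00139). *Chp1*, a calcium-binding EF-hand protein, rose by 1.21 (SE 0.17, adjusted p = 0.000534), and *Trpv4*, a calcium-permeable channel, by 1.24 (SE 0.22, adjusted p = 0.00478). *Gna12*, a G protein alpha subunit, rose by 1.33 (SE 0.19, adjusted p = 0.000612), *Grk3*, a kinase of G protein-coupled receptors, by 1.38 (SE 0.20, adjusted p = 0.000495), and the cyclic nucleotide phosphodiesterase *Pde3b* by 1.47 (SE 0.25, adjusted p = 0.00406). *Snap23*, a SNARE of exocytosis, rose by 1.06 (SE 0.15, adjusted p = 0.000576). *Penk*, which encodes the precursor of the enkephalins, read 9.50, 9.05, 9.93, and 9.78 in WT and 11.75, 12.55, 11.28, and 10.67 in *Camkk2*-/- cells. It rose by 2.00 (SE 0.40, adjusted p = 0.0131), and the call was lost without WT replicate 2 or *Camkk2*-/- replicate 2 (adjusted p of 0.0732 to 0.0738).

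Among the genes that fell, *Mid1*, an X-linked microtubule-associated ubiquitin ligase, read 12.71, 11.68, 13.59, and 12.88 in WT and 10.29, 9.04, 9.96, and 10.85 in *Camkk2*-/- cells. *Lrrc27*, a leucine-rich repeat gene, read 10.51, 10.43, 11.50, and 11.24 in WT and 7.86, 8.78, 8.30, and 8.40 in *Camkk2*-/- cells. Each showed a gap between the groups although WT replicates differed by more than 1 log2 unit. *Mid1* fell by 2.68 (SE 0.37, adjusted p = 0.000377) and *Lrrc27* by 2.59 (SE 0.26, adjusted p = 7.05e-06). *Galnt9*, which begins mucin-type O-glycosylation, fell from 7.13, 5.67, 7.50, and 6.44 to 4.51, 3.58, 3.99, and 4.15, all below the background median, by 2.63 (SE 0.35, adjusted p = 0.000255), at least 2.49-fold. *AI506816*, a long noncoding RNA, read 9.68, 8.69, 8.68, and 8.00 in WT and 6.17, 6.97, 7.02, and 6.31 in *Camkk2*-/- cells and fell by 2.14 (SE 0.38, adjusted p = 0.00482). *Fam20c*, the Golgi kinase of secreted proteins, fell from 13.01 ± 0.10 to 11.59 ± 0.23, by 1.42 (SE 0.20, adjusted p = 0.000375). *Nedd4l*, a ubiquitin ligase, fell by 1.50 (SE 0.21, adjusted p = 0.000375) and *Sirt2*, a NAD-dependent deacetylase, by 1.29 (SE 0.18, adjusted p = 0.000375). *Rab6b*, a Golgi-associated small GTPase, read 6.06, 5.37, 5.78, and 5.78 in WT and 4.08, 3.78, 3.89, and 4.19 in *Camkk2*-/- cells and fell by 1.76 (SE 0.17, adjusted p = 5.92e-06). All *Camkk2*-/- arrays were below the background median, and the bound is at least 1.3-fold.

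Genes of chromatin and the cell cycle gave few calls. *Ncapg2*, a condensin II subunit, read 7.73, 6.95, 7.75, and 7.23 in WT and 5.98, 5.75, 5.28, and 5.54 in *Camkk2*-/- cells, and fell by 1.78 (SE 0.24, adjusted p = 0.000283). *Mcm6*, of the replicative helicase, was the only DEG among 33 cell cycle and DNA replication genes (0 higher and 2 lower at an unadjusted p under 0.05). It fell by 1.08 (SE 0.21, adjusted p = 0.0113), a call lost without *Camkk2*-/- replicate 3 (adjusted p = 0.0542), and *Bub1b* stood at −1.56 (adjusted p = 0.186). *Jarid2*, a cofactor of Polycomb repressive complex 2, rose by 1.14 (SE 0.19, adjusted p = 0.00298). *Kdm6b*, which removes methyl groups from lysine 27 of histone H3, rose by 0.87 (SE 0.17, adjusted p = 0.0118) and lost the call without WT replicate 3 or *Camkk2*-/- replicate 3 (adjusted p of 0.0542 to 0.0609).

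Some of the higher genes have no assigned role here. *1600014C10Rik* read 8.60, 8.02, 8.94, and 8.66 in WT and 11.23, 11.90, 11.09, and 10.73 in *Camkk2*-/- cells, and rose by 2.68 (SE 0.41, adjusted p = 0.00103). *Atp10d*, a member of the lipid-flipping P4-type ATPases that the reference table lists as a transcribed pseudogene, read 6.83, 6.90, 6.49, and 6.77 in WT and 9.03, 9.19, 9.40, and 8.95 in *Camkk2*-/- cells. Its replicates were close in both groups, with a rise of 2.40 (SE 0.18, adjusted p = 8.97e-08). In all, the table lists 134 of the 141 DEGs as protein coding, 5 as transcribed pseudogenes, and 2 as long noncoding RNAs. The mean signal of 16 DEGs lay below the background median in WT cells and that of 15 in *Camkk2*-/- cells, 6 of them in both.

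Further DEGs that were called without any 1 of the 8 arrays act in the cytoskeleton, metabolism, and transport. *Clstn1*, which encodes the vesicle cargo protein calsyntenin 1, read 4.85, 4.48, 4.92, and 4.88 in WT and 6.39, 6.92, 6.98, and 6.25 in *Camkk2*-/- cells and rose by 1.85 (SE 0.23, adjusted p = 0.000136), at least 2.41-fold. *Abhd1*, a gene of the alpha/beta hydrolases that the reference table lists as a transcribed pseudogene, rose by 1.87 (SE 0.23, adjusted p = 0.000136). *Clip1*, which encodes a protein of growing microtubule ends, rose by 0.97 (SE 0.17, adjusted p = 0.00378). *Galnt11*, which like *Galnt9* begins O-glycosylation, rose by 1.04 (SE 0.16, adjusted p = 0.00103), opposite to *Galnt9*. *Adi1*, of the methionine salvage pathway, rose by 1.21 (SE 0.23, adjusted p = 0.00801), and *Coq4*, needed for coenzyme Q synthesis, by 1.08 (SE 0.19, adjusted p = 0.00592).

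Of the lower genes of this kind, *Slc35a5*, of the nucleotide sugar transporters, read 11.02, 10.84, 11.63, and 11.09 in WT and 9.52, 10.28, 9.95, and 9.78 in *Camkk2*-/- cells and fell by 1.26 (SE 0.19, adjusted p = 0.00106). *Mindy1*, a deubiquitinase of lysine 48-linked chains, fell by 1.07 (SE 0.18, adjusted p = 0.00375), and *Cacul1*, a cullin-related gene, by 0.92 (SE 0.14, adjusted p = 0.00129). Zinc finger genes went both ways, *Zfp30* rising by 1.35 (SE 0.18, adjusted p = 0.000197), at least 1.19-fold from a WT mean below the background median, and *Zfp729a* falling by 1.31 (SE 0.18, adjusted p = 0.000328).

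Calls of some genes with well-known roles did not hold up when single arrays were left out. *Cat*, catalase, which degrades hydrogen peroxide, read 15.52, 16.04, 16.09, and 16.11 in WT and 15.02, 15.25, 15.12, and 15.05 in *Camkk2*-/- cells. It fell by 0.83 (SE 0.19, adjusted p = 0.035), a call lost without WT replicate 2, 3, or 4 or *Camkk2*-/- replicate 1, 2, 3, or 4 (adjusted p of 0.0667 to 0.118). *Dusp5*, a phosphatase of ERK, rose by 0.81 (SE 0.18, adjusted p = 0.0355) and was lost without WT replicate 2, 3, or 4 or *Camkk2*-/- replicate 1, 2, or 3 (adjusted p of 0.0713 to 0.145). *Gab1*, a docking protein of receptor tyrosine kinases, rose by 1.36 (SE 0.28, adjusted p = 0.0191) and was lost without WT replicate 1, 2, or 3 or *Camkk2*-/- replicate 1, 2, or 3 (adjusted p of 0.0542 to 0.101). *Ptpn22*, a tyrosine phosphatase of immune receptor signaling, fell by 0.73 (SE 0.13, adjusted p = 0.00788), just past the threshold on the difference. Without WT replicate 1, 3, or 4 or *Camkk2*-/- replicate 1 or 2 its difference of −0.72 to −0.69 was short of that threshold, with adjusted p values of 0.0251 to 0.0323. *Wfs1*, of the endoplasmic reticulum membrane, fell by 1.48 (SE 0.33, adjusted p = 0.0352), a call lost without WT replicate 3 or 4 or *Camkk2*-/- replicate 1, 2, or 3 (adjusted p of 0.0762 to 0.151).

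Of the DEGs given without values, the higher genes *Depdc7*, *Gm5150*, and *Ldlrad3* were called without any 1 of the 8 arrays. So were the lower genes *Adcy2*, *Alkbh6*, *Arhgap5*, *Cryzl1*, *Dubr*, and *Spred3*. The others lost the call without at least 1 array, namely *Anks1*, *Arhgef3*, *Cass4*, *Fgf11*, *Gmfg*, *Grap*, *Havcr1*, *Iqgap2*, *Kif1b*, *Lilra5*, *Mb21d2*, *Morn4*, *Nectin3*, and *Zfp14*, which were higher, and *Bend4*, *Cep89*, *Dcaf8*, *H2bc21*, *Hook2*, *Rhoc*, *Trmt12*, and *Wsb2*, which were lower. For *Adcy2*, *Havcr1*, *Lilra5*, and *Nectin3* the means of both genotypes lay below the background median. Genes in chromosomal runs are named below. Of all 141, 79 were called under every other setting that tested them, which include leaving out each of the 8 arrays, and 62 were lost in at least 1.

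Across the 36 gene lists, 17 had no DEG among their 330 entries. Of these entries 45 were higher and 7 lower at an unadjusted p under 0.05 (limma), beside 4.82% and 3.38% of all genes. They cover chemokine receptors, MHC class I, co-stimulatory ligands, steroid biosynthesis, the respiratory chain, macrophage transcription factors, NF-kB, osteoclast genes, lysosome and autophagy, Toll-like receptors, C-type lectins and scavenger receptors, complement, integrins, the Ms4a and Ly6 families, the ATF4 response, arginine and tryptophan enzymes, and receptors of colony-stimulating factors. The medians of the 36 lists ran from −0.51 for the p200 family to 0.68 for MHC class II, and 30 were above 0. The nearest to a call in these lists were *Plac8*, at 1.69 (adjusted p = 0.055), and *Cfp*, which encodes properdin, at 0.65 (adjusted p = 0.057). They were followed by *Csf3r*, at 0.92 (adjusted p = 0.0911), and *Cfb*, complement factor B, at 1.75 (adjusted p = 0.0958). The 8 measured macrophage markers had mean signals of 15.7 to 16.0 on the WT and 16.1 to 16.3 on the *Camkk2*-/- arrays, with 0 DEGs, and markers of T and NK cells and of stromal cells had means of 4.10 to 5.89. The 4 B cell markers had means of 4.85 to 4.99 on the WT and 5.13 to 6.00 on the *Camkk2*-/- arrays, near the background median. All 4 differences were positive (median 0.54), 2 were higher at an unadjusted p under 0.05, and 0 were DEGs (limma). The part of B cells in the MHC class II, *Fcrla*, and Ms4a values was not tested.

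In the Ms4a and Ly6 families, membrane proteins of myeloid and lymphoid cells, all 19 measured genes had positive differences, as did 54.0% of all genes. The median was 0.37. At an unadjusted p under 0.05, 8 were higher (limma, 0 DEGs), beside 4.82% of all genes. The mean signal of the 19 genes was 9.02 to 9.34 on the WT and 9.47 to 10.3 on the *Camkk2*-/- arrays. *Ms4a6b* stood at 0.93 (adjusted p = 0.113) and *Ly6i* at 1.91 (adjusted p = 0.13). Of the 17 entries of the complement list, 5 were higher and 0 lower at an unadjusted p under 0.05, beside 4.82% and 3.38% of all genes. *C1qa* stood at 0.86 (adjusted p = 0.141).

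**Figure D4:**
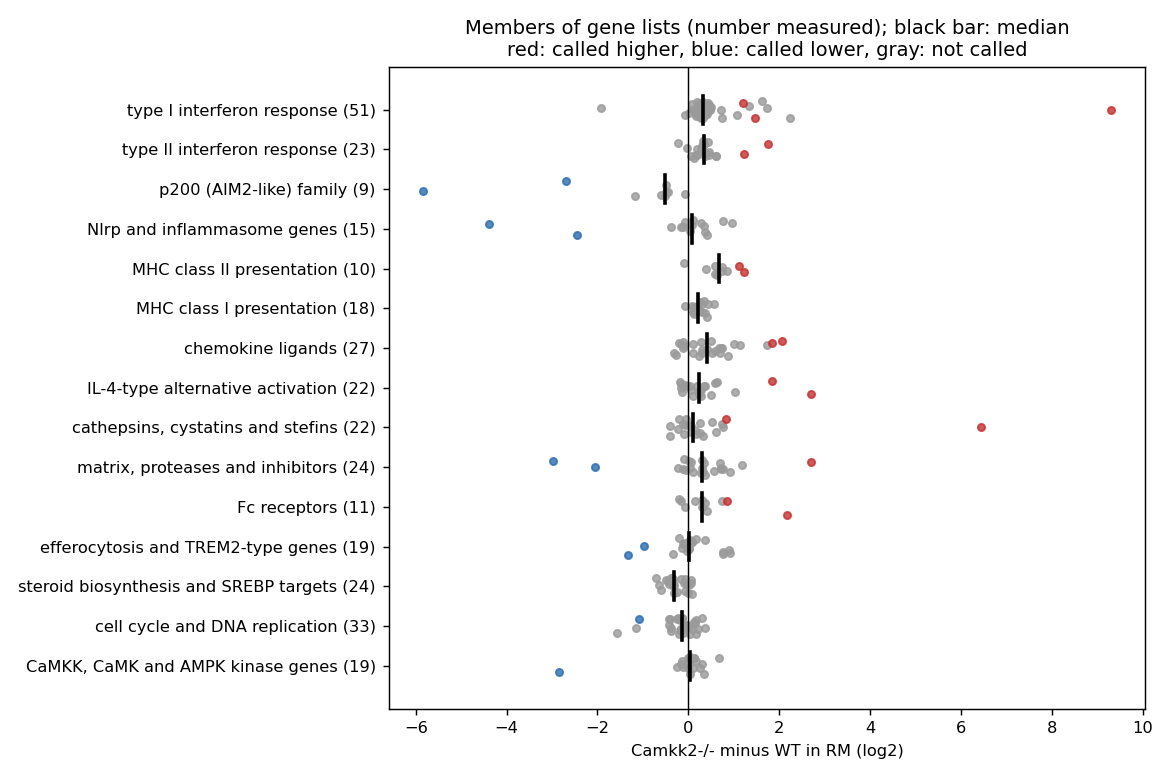
Difference of *Camkk2*-/- minus WT RM-BMDM (log2) for each measured member of 15 gene lists, with the number of members in parentheses, a black bar at the list's median, red for members called higher, blue for members called lower, and gray for the rest. Most members lie within 1 log2 unit of 0, and some calls lie far from the rest of their list, such as Ifi44l at 9.30, Ctse at 6.44, and Ifi213 at −5.84, while others, such as Ctsl at 0.83, lie beside members not called.

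Many DEGs lay close to another DEG on the chromosome. Of the 141 DEGs, 40 (28.4%) had another DEG among their 10 nearest tested genes, 5 on either side, and of the 19364 other genes 1173 (6.06%) had a DEG there, a description with no test. They formed 17 runs. The longest was of 4 genes on chromosome 4, *Plod1*, *Agtrap*, *Fbxo44*, and *Angptl7*, of which the first and the third were lower and the others higher. Runs of 3 were *Tmem181a*, *Tmem181b-ps*, and *Tmem181c-ps* on chromosome 17, *Slc28a2b*, *Gatm*, and *Sema6d* on chromosome 2, *1600014C10Rik*, *Pop4*, and *Zfp939* on chromosome 7, and *Zfp608*, *Gramd3*, and *Aldh7a1* on chromosome 18. In 11 of the 17 runs all genes moved in 1 direction. Of the genes in runs given without values, *Agtrap*, *Aldh7a1*, *Cbr3*, *Cercam*, *Chaf1b*, *Ganc*, *Gramd3*, *Plod1*, *Sema6d*, *Tmem165*, and *Zfp608* lost their call without at least 1 array.

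The *Tmem181* genes, a transmembrane protein gene and pseudogene copies of it, rose by 1.02 (adjusted p = 0.00103), 1.15 (adjusted p = 0.000136), and 0.89 (adjusted p = 0.00983), the last lost without *Camkk2*-/- replicate 2 (adjusted p = 0.0553). The sources used here do not say whether such copies share probes. Other pairs were *Ciita* and *Clec16a*, *Ganc* and *Snap23*, *Plscr3* and *Acap1*, *Zfyve19* and *Spint1*, *Srd5a3* and *Tmem165*, *Vsig8* and *Dusp23*, *Cbr3* and *Chaf1b*, and *Coq4* and *Cercam*, besides the *Ifi213*, *Nlrp1*, *Camkk2*, and *Tmem176* pairs given above. *Clec16a*, a regulator of mitophagy, rose by 1.07 (SE 0.20, adjusted p = 0.00983), a call lost without *Camkk2*-/- replicate 2 (adjusted p = 0.0554), as that of its neighbor *Ciita* was. *Zfyve19* fell by 1.31 (SE 0.18, adjusted p = 0.000314) beside *Spint1*. Chromosomes 5 and 7 held 19 DEGs each, 1.67% and 1.04% of their tested genes. The part that the number of backcrosses has in these runs was not tested.

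The same genotypes in TCM, on 8 other arrays, had 725 DEGs (3.72%), 446 higher (2.29%) and 279 lower (1.43%), and whether a replicate's RM and TCM cultures shared marrow is not given. The difference between media itself passed an adjusted p under 0.05 for 28 genes (0.144%), 8 of which were DEGs in RM. Without the RM array of *Camkk2*-/- replicate 2 or of WT replicate 4, 10 genes passed this test. No TCM array was left out. Of the 57 genes lower in RM, 47 were also DEGs downward in TCM, and of the 84 higher, 39 were DEGs upward. In all, 132 of 141 had the same sign in both media, and the share of all genes that did so was not counted.

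*Kcnj10* had the lowest adjusted p for a difference between media among the RM DEGs. Its difference between genotypes was 3.46 in RM and 0.29 (adjusted p = 0.683) in TCM, so that the TCM difference less the RM difference was −3.17 (SE 0.36, adjusted p = 0.000357). *Fn1* was higher in *Camkk2*-/- cells in RM and stood at −0.60 (adjusted p = 0.537) in TCM, and the TCM less the RM difference was −3.30 (SE 0.56, adjusted p = 0.0188). *Sort1*, sortilin, which sorts proteins from the Golgi to lysosomes, was higher in RM at 0.98 (SE 0.15, adjusted p = 0.00106) and lower in TCM at −0.70 (adjusted p = 0.00754), and the difference between media was −1.68 (SE 0.21, adjusted p = 0.000978). *Pdlim4*, an actin-associated LIM protein gene, rose by 1.22 (SE 0.14, adjusted p = 4.18e-05) in RM and stood at −0.05 (adjusted p = 0.926) in TCM, a difference between media of −1.27 (SE 0.20, adjusted p = 0.00908). *Gpc1*, the heparan sulfate proteoglycan glypican 1, was at 0.73 (adjusted p = 0.0333) in RM, lost without WT replicate 1 or 3 or *Camkk2*-/- replicate 1, 2, 3, or 4 (adjusted p of 0.0514 to 0.13), and at −0.66 (adjusted p = 0.0199) in TCM, a difference between media of −1.40 (SE 0.23, adjusted p = 0.0139).

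Genes lower in RM differed between media in 3 cases. *Fam20c* was lower in both, at −1.42 in RM and −3.0 (adjusted p = 9.66e-09) in TCM, with a difference between media of −1.57 (SE 0.28, adjusted p = 0.024). *Akr1c18*, which inactivates progesterone, was called lower in RM (adjusted p = 0.0349) with both means below the background median, higher in TCM at 0.77 (adjusted p = 0.0342), and differed between media by 1.69 (SE 0.29, adjusted p = 0.0199). *Slc28a2b*, of a nucleoside transporter family, was lower in RM at −0.79 (adjusted p = 0.0374) and higher in TCM at 0.76 (adjusted p = 0.0146), and differed between media by 1.56 (SE 0.25, adjusted p = 0.0133). The RM call of *Akr1c18* was lost without WT replicate 1, 2, or 3 or *Camkk2*-/- replicate 1, 2, 3, or 4 (adjusted p of 0.0632 to 0.134) and that of *Slc28a2b* without WT replicate 1, 2, 3, or 4 or *Camkk2*-/- replicate 2, 3, or 4 (adjusted p of 0.0507 to 0.13).

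**Figure D5:**
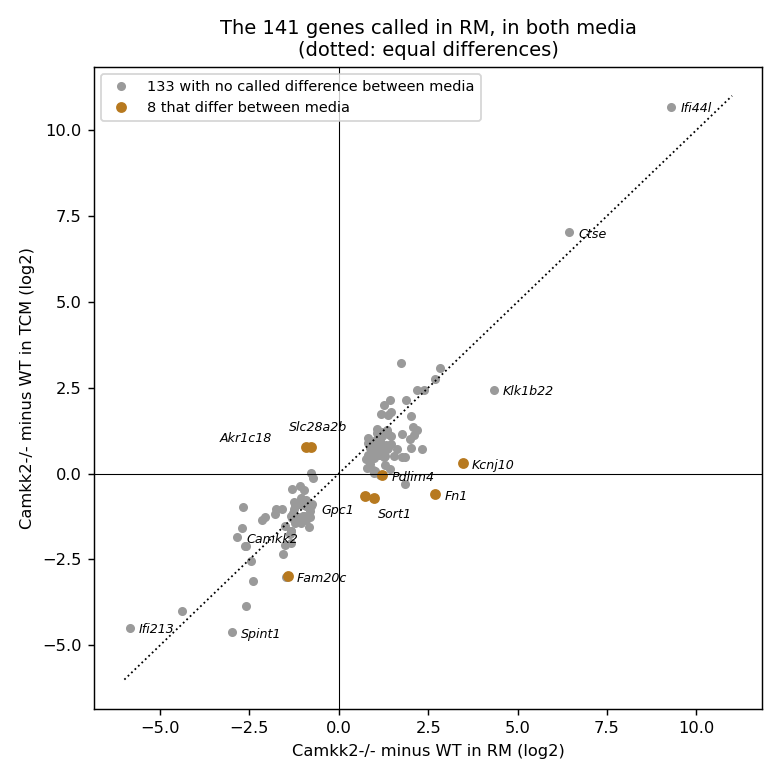
Difference of *Camkk2*-/- minus WT (log2) in RM, horizontal axis, and in TCM, vertical axis, for the 141 genes called in RM, with a dotted line at equal differences. The 8 genes in brown differed between media at an adjusted p under 0.05, with Kcnj10 and Fn1 near or below 0 in TCM, and the other 133, in gray, include Ifi44l and Ctse, which were higher in both media.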

How the data were processed

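The deposited table held log2 signals of 28846 probe sets on 16 mouse Affymetrix arrays, made by the authors with Affymetrix Expression Console per the submitters' processing notes. The sources used here do not give its normalization, build, or annotation. Of 22206 probe sets that are not controls, 19572 carried 1 gene symbol, and the probe set of the highest mean was kept for each of 19505 genes. Values ran from 1.63 to 19.6, and array medians from 5.77 to 5.91. Arrays give no read depth, and their number limits the precision. No 2 arrays were copies.

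The 4 groups of 4 arrays were fitted together with limma 3.58.1 in R 4.3.3 (lmFit, contrasts, eBayes), with Benjamini-Hochberg adjustment over all genes. The DEG thresholds are those by which the study's supplement describes its DEGs, with the log base, not stated there, read as natural. Replicates are biological per the methods, with no pairing stated. Alternatives were other scaling, filters, weights, the replicate number as a block, the 8 RM arrays alone, and each of the 8 RM arrays left out. Scripts were tested on simulated data.

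Any DEG could be named, and the 15 of the largest difference in each direction whose arrays did not overlap are given with each array. Of each list up to 4 members of the smallest adjusted p could be named, as could the kinases, the 5 genes on either side of *Camkk2*, and DEGs near each other. *Bst2*, *Klk1*, *Klk1b1*, *Mx2*, and *Nlrp1b* were added after their values were seen. The comparison, the lists, and the thresholds were chosen with earlier results of these data known. Gene names, neighbors, and promoters came from RefSeq tables. List names not found among the tested genes were looked up there as synonyms. This placed *Tom1l2* in the steroid biosynthesis and LXR lists, *Olfr48* in the complement list, and *Pigq* in the glycolysis list. None of these was a DEG, and the counts and medians of those lists include them.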

Additional observations from a re-analysis of the deposited data

Results flagged for a closer look

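In 19 of 364 sets of 4 replicates, over 182 genes, 1 array stood apart from the other 3 by a gap above the 95% critical value of Dixon's test, and chance gives about 1 in 20. *Camkk2*-/- replicate 1 was the lowest of its group for *Ifi44l* (12.04, others 13.43 to 13.61), *Xaf1* (13.49, others 14.41 to 14.50), *Ifi213* (5.82, others 6.92 to 7.02), and *Kif1b* (8.42, others 9.19 to 9.26). The interferon-induced genes *Ifi44l* and *Xaf1* were called without this array as well.

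WT replicate 1 was apart for 6 genes. It was the highest WT array for *Pf4* (12.99, others 11.48 to 11.72), *Cxcr4* (12.57, others 11.63 to 11.79), *Mcm6* (10.74, others 9.98 to 10.08), and *Cass4* (7.71, others 7.14 to 7.21), and the lowest for *Cat* (15.52, others 16.04 to 16.11) and *Fabp5* (14.26, others 14.53 to 14.58). WT replicate 2 was the lowest for *Gna12* (14.11, others 14.83 to 14.94), *H2-Aa* (16.62, others 16.97 to 17.02), *Tmem181b-ps* (10.93, others 11.30 to 11.37), *Zfyve19* (9.40, others 9.80 to 9.87), and *Clstn1* (4.48, others 4.85 to 4.92). *Sema6d* had a low array in both groups, WT replicate 3 at 4.59 (others 5.61 to 5.73) and *Camkk2*-/- replicate 4 at 5.81 (others 6.70 to 6.75). *Camkk2*-/- replicate 2 was the highest for *Cd40* (9.20, others 8.06 to 8.14) and WT replicate 4 for *Morn3* (6.15, others 5.48 to 5.56).

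The genotype difference in TCM less that in RM passed the test for 8 of the genes called in RM. It was −3.30 for *Fn1*, −3.17 for *Kcnj10*, −1.68 for *Sort1*, −1.57 for *Fam20c*, −1.40 for *Gpc1*, −1.27 for *Pdlim4*, 1.56 for *Slc28a2b*, and 1.69 for *Akr1c18*.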

How the results depend on the processing

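The counts of DEGs moved by less than 1.5 times under other scaling, filters, weights, and models, with 76 to 108 higher and 50 to 64 lower genes, except at an adjusted p under 0.01, where 47 were higher and 33 lower. With no threshold on the difference, 87 were higher and 57 lower, *Ifi30*, *Myo5c*, and *Vrk2* in addition. Leaving out 1 RM array gave 53 to 99 higher, 37 to 65 lower, and 10 to 31 genes that differed between media. No TCM array was left out. Without WT replicate 2, 46.3% of the calls were higher, and without WT replicate 3, 65.7%, against 59.6%. *Camkk2* was called under every setting, at −3.08 to −2.63 with 1 array left out. No DEG changed sign under any setting. Dropping dim genes removed 9 DEGs before the test. Arrays of the same replicate number correlated at 0.37, 0.03, 0.25, and 0.21 in their deviations from the group means, and since 1 of the 4 was under 0.1 and no source states a pairing, the numbers were not taken to pair the arrays. Not every array correlated best with its own number. With the replicate number as a block, 108 genes were higher, 63 lower, and 32 differed between media, 136 of the other 140 DEGs kept their call, and *Camkk2* stood at −2.85 (adjusted p = 6.58e-06). *Arg2*, *Bub1b*, *C1qa*, *Cd40*, *Nfkbiz*, and *Plac8*, which are not among the 141 DEGs, passed with that block (adjusted p of 0.0182 for *Bub1b* to 0.0491 for *Nfkbiz*). A principal component with 23.2% of the variance of the RM arrays parted replicates 1 and 2 from 3 and 4, and with that split as a term 100 genes were higher and 62 lower. Of genes not called, *Plac8* passed under 7 settings. Dim signals limit the calls of genes near the background median.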
